A study of Oncorhynchus mykiss with 6 samples.

Results

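The miRNAs miR-192, miR-194 and miR-215 were followed in the liver of rainbow trout (Oncorhynchus mykiss) that had been fasted or left as controls. Their members are all rows of the deposited miRNA table whose name holds miR-192, miR-194 or miR-215, on either arm of the hairpin and whatever the fish prefix or length variant. There were 15 such rows among 1427, 6 of them named miR-192, 9 named miR-194 and 0 named miR-215, so no level is given for miR-215. By the labels all fish were juvenile wild-type animals, and feeding is the only difference between the groups that the labels name. There were 3 libraries from fish fasted for 4 days (replicates 3, 4 and 5) and 3 from control fish (replicates 3, 4 and 6). The labels do not say whether a library is a single fish or a pool, or how the controls were fed, so a p-value here speaks of the variation among libraries, part of which may be technical.

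These miRNAs are processed from hairpins that lie next to each other in vertebrate genomes, miR-194 being paired with miR-192 in one cluster and with miR-215 in another in mammals. A hairpin yields a 5p and a 3p arm, and the seed, bases 2 to 8 of the mature RNA, carries most of its target recognition. miR-192 and miR-215 share their seed and are counted as a single family, while miR-194 has a seed of its own. In mammals they are known as miRNAs of liver, intestine and kidney epithelium, are activated by hepatocyte nuclear factors, and in human cells also by p53.

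The sequences shown are those of the 7 member rows that passed the filter on low counts, which include the leading row of each arm, and of 2 miR-194b rows that differ from miR-194a within the mature RNA. They are printed from 5′ to 3′ as the table gives them, in DNA letters, with bases 2 to 8 in capitals.
ipu-miR-192: aTGACCTAtgaattgacagcc
dre-miR-192_L+1: cATGACCTatgaattgacagcc
ssa-miR-192a-3p: cCTGTCAGttatgtaggccact
ola-miR-192-3p_R+1_1ss11CA: cCTGTCAGttatgtaggccactgt
ssa-miR-194a-5p: tGTAACAGcaactccatgtgga
dre-miR-194a_L+1R+1: cTGTAACAgcaactccatgtgga
ssa-miR-194a-3p_R-2: cCAGTGGAgatgctgttacct
ssa-miR-194b-5p: tGTAACAGcatctccatatgga
ssa-miR-194b-5p_1ss9CT: tGTAACAGtatctccatatgga
The prefixes name the fish whose miRNA entry was matched (ipu, channel catfish; ssa, Atlantic salmon; dre, zebrafish; ola, medaka; fru, the pufferfish Takifugu). The row dre-miR-192_L+1 is the ipu-miR-192 sequence with 1 base added at the 5′ end, and dre-miR-194a_L+1R+1 adds 1 base to the 5′ end of ssa-miR-194a-5p, so that bases 2 to 8 move by 1 position in both. The medaka-named 3p row is ssa-miR-192a-3p with 2 bases added at its 3′ end. Counting from 1 at the 5′ end, ssa-miR-194b-5p differs from ssa-miR-194a-5p by A11T and G18A, and the row ssa-miR-194b-5p_1ss9CT differs from ssa-miR-194b-5p by C9T, all outside the seed.

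The seeds set these rows apart from the rest of the table. All 3 rows with the seed TGACCTA were named miR-192 and all 5 rows with GTAACAG were named miR-194. The 3p seed CTGTCAG occurred in 2 member rows and in 4 others that together held 8 counts over the 6 libraries. Of these, 3 were named mir-192-p3 in lower case and 1 was a predicted small RNA, PC-3p-92508_3, and none enters the values here.

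The row with the most counts was one of miR-122, and the depth of the libraries was uneven. The row with the next most counts, dre-miR-100-5p, is not among the hepatocyte miRNAs listed here. The summed counts of the table ran from 737686 to 1432592 in fasted libraries and from 982844 to 4203708 in control libraries. They made up 15.1% of the mappable reads in fasted replicate 3, the lowest share, and 47.8% and 34.9% in fasted replicates 4 and 5, against 45.0 to 61.0% in controls. Rows of miR-122, the hepatocyte miRNA, held 35.7 to 42.6% of the counts in fasted and 35.1 to 40.1% in control libraries. Of the other hepatocyte miRNAs listed, miR-148, miR-101 and miR-22 were present, while miR-802 and miR-885 have 0 rows. A count of 3, taken as the floor, stood for 2.08 to 2.48 CPM in fasted and 0.810 to 3.66 CPM in control libraries, CPM being counts scaled to a common library total after TMM scaling (a library scaling that allows for differences in composition).

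miR-192-5p was by far the most abundant member. The row ipu-miR-192 had 10660.5, 14724.5 and 19985.5 counts in fasted replicates 3, 4 and 5, and 55182.5, 15309.5 and 45899 counts in control replicates 3, 4 and 6. It held 89.7% of all member counts and ranked 11 among the 1427 rows by its mean share. ssa-miR-194a-5p held a further 9.43% of member counts and ranked 48. The remaining 13 rows were minor, the largest being ssa-miR-192a-3p with 0.410% of member counts. Counts are of whole small RNAs of similar length, so no length scaling was applied, but ligation and amplification can favour some sequences over others.

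The order of the arms was the same in every library, with miR-192-5p above miR-194-5p, then miR-192-3p and then miR-194-3p. Summed over its rows, the 5p arm of miR-192 averaged 11411 ± 2536 CPM in fasted and 16014 ± 2354 CPM in control liver (SD, n = 3 each). The 5p arm of miR-194 averaged 1491 ± 584 CPM in fasted and 1443 ± 222 CPM in control liver. The 3p arm of miR-192 averaged 80.1 ± 19.7 CPM in fasted and 74.4 ± 10.6 CPM in control liver, and that of miR-194 19.7 ± 7.41 and 28.6 ± 9.10 CPM in fasted and control liver. Among single rows that passed the filter on low counts the order was less clear at the lower end. dre-miR-194a_L+1R+1 and the 24-base 3p row of miR-192 overlapped in range in both groups. In the fasted group dre-miR-194a_L+1R+1, ssa-miR-194a-3p_R-2 and dre-miR-192_L+1 all overlapped with each other. In the control group the 24-base row also overlapped with dre-miR-192_L+1.

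**Figure D1:**
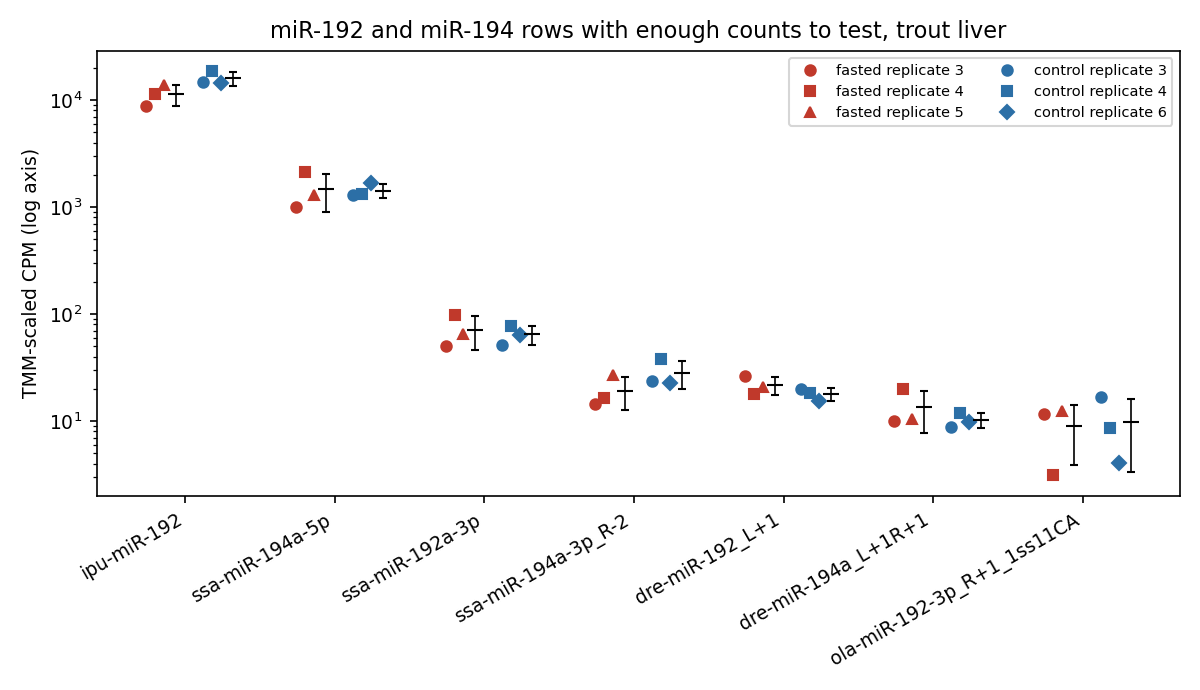
TMM-scaled CPM on a log axis of the 7 member rows with enough counts to test, from the most to the least abundant; each symbol is a library, and the bar with caps is the mean ± SD of 3 libraries. For ipu-miR-192 the fasted libraries lie between 8815 and 13888 CPM and the control libraries between 14388 and 18691 CPM, while the other 6 rows overlap.

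After TMM scaling miR-192-5p was lower in each of the 3 fasted libraries than in any control library, but the difference was not past the threshold. ipu-miR-192 had 8815, 11459 and 13888 CPM in fasted replicates 3, 4 and 5, and 14893, 18691 and 14388 CPM in control replicates 3, 4 and 6. The groups did not overlap, and fasted replicate 3 was the lowest library. The log2 fold change was -0.49 (SE 0.30; 95% interval -1.19 to 0.21; edgeR quasi-likelihood test, adjusted p = 0.606 over 309 rows). Without fasted replicate 3, the library in which the table held the lowest share of mappable reads, it was -0.27. Groups lying apart in this direction were found in 27 of the 309 rows tested, or 8.74%, and in either direction in 17.5%. In bulk liver, fewer cells that hold a miRNA and less of it per cell cannot be told apart.

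As a plain share of the table's counts, the summed miR-192 rows did not separate the groups. These 6 rows together took 1.46, 1.04 and 1.69% in fasted replicates 3, 4 and 5, and 1.32, 1.57 and 1.102% in control replicates 3, 4 and 6. The lowest share of all, 1.04%, had a 95% Wilson interval of 1.02 to 1.06%, and the highest, 1.69%, one of 1.67 to 1.71%, so that the libraries of a group differed by far more than counting error, which is all these intervals cover. With library totals as the only scaling, the log2 fold change of ipu-miR-192 was 0.07, and the median of all rows moved up by 0.58. Less that shift it was -0.51. The shift is itself measured from the TMM fit, so nearness to the TMM value follows from the subtraction and favours neither scaling.

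For miR-194-5p the groups overlapped after TMM scaling and lay apart by share. ssa-miR-194a-5p had 1009, 2121 and 1294 CPM in fasted replicates 3, 4 and 5, and 1283, 1316 and 1684 CPM in control replicates 3, 4 and 6. Fasted replicate 4 was the highest and fasted replicate 3 the lowest of the 6 libraries. Its log2 fold change was 0.05 (SE 0.37; 95% interval -0.81 to 0.90; edgeR adjusted p = 0.973), and -0.32 without fasted replicate 4 and -0.03 without control replicate 3. By share, the 9 miR-194 rows took 0.170, 0.194 and 0.161% in fasted replicates 3, 4 and 5, each above the 0.116, 0.115 and 0.131% of control replicates 3, 4 and 6. By share, all fasted libraries lay above all controls in 76 of the 309 rows tested, or 24.6%. With library totals as the scaling, the log2 fold change of ssa-miR-194a-5p was 0.55 (edgeR adjusted p = 0.384). Less the shift of all rows, again measured from the TMM fit, it was -0.03, which is no separate check.

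**Figure D2:**
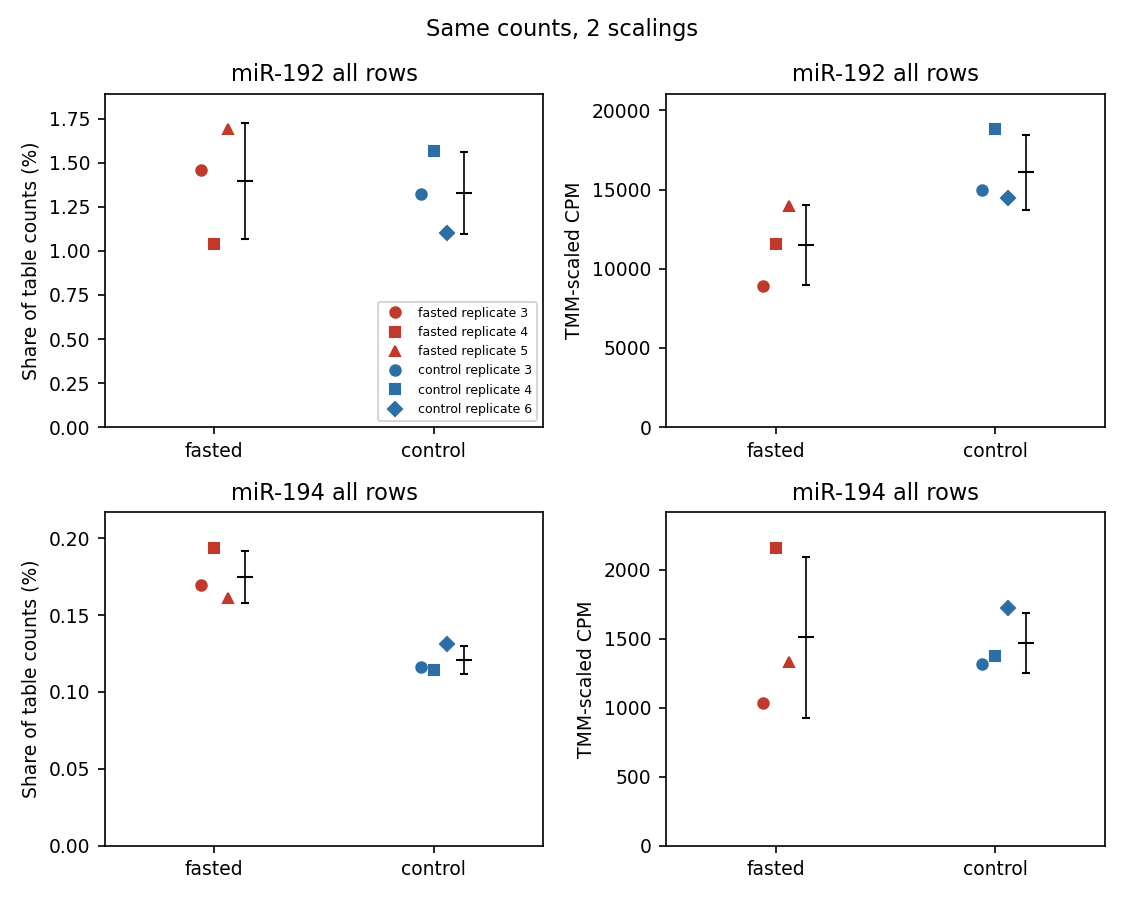
Summed miR-192 rows (top) and miR-194 rows (bottom) in each library, as a share of the table's counts (left, %) and as TMM-scaled CPM (right); symbols are libraries and bars the mean ± SD of 3. The miR-192 groups are apart only on the right, and the miR-194 groups only on the left, where fasted libraries hold 0.161 to 0.194% and controls 0.115 to 0.131%.

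Ratios within a library are free of the scaling. The miR-192 rows held 8.60, 5.36 and 10.5 counts for each count of miR-194 in fasted replicates 3, 4 and 5, and 11.4, 13.7 and 8.41 in control replicates 3, 4 and 6. The groups overlapped, since control replicate 6 lay below fasted replicates 3 and 5. On the log2 scale the ratio averaged 2.97 ± 0.50 in fasted and 3.45 ± 0.35 in control liver (SD, n = 3), a difference of -0.48 that was within the variation among libraries (p = 0.3 by a two-sided exact permutation test, whose smallest possible p is 0.1, and 0.5 after adjustment over 10 within-library measures). It was -0.20 without fasted replicate 4 and -0.32 without control replicate 4.

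Set against miR-122, the hepatocyte miRNA, miR-192 overlapped between the groups and miR-194 did not. For each 1000 counts of dre-miR-122_R-1 there were 34.5, 27.8 and 47.7 counts of miR-192 in fasted replicates 3, 4 and 5, and 37.8, 39.3 and 29.2 in control replicates 3, 4 and 6, with overlapping ranges. For miR-194, on the same scale, there were 4.02, 5.19 and 4.56 counts in fasted replicates 3, 4 and 5, above the 3.33, 2.87 and 3.48 of control replicates 3, 4 and 6. Against the same miR-122 row, all fasted libraries lay above all controls in 74 of the 308 other rows tested (24%). Rows of miR-122 held 35.7 to 42.6% of the counts in fasted and 35.1 to 40.1% in control libraries. Values per miR-122 count therefore stay close to the plain shares given above and are no separate check on them. The comparison with miR-122 was chosen after the values were seen and is given without a test.

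The 5p arm prevailed for both miRNAs, and for miR-192 its excess was smaller in the fasted libraries, though not past the threshold. A hairpin here stands for all rows of a miRNA number, with its letters summed. In fasted replicates 3, 4 and 5 there were 143, 113 and 180 counts of miR-192-5p for each count of miR-192-3p, against 218, 216 and 212 in control replicates 3, 4 and 6. The 3 control libraries lay close together and all fasted libraries lay below them. The 3p counts behind these ratios were 75, 130 and 111 in fasted replicates 3, 4 and 5, and 254, 71 and 217 in control replicates 3, 4 and 6. The 95% Wilson interval of the miR-192-3p share was 0.00573 to 0.00911% in control replicate 4 and 0.00774 to 0.0112% in fasted replicate 5. The 3 control ratios thus lay closer together than counting error alone would make likely, and their SD understates the uncertainty. On the scale of log2((5p CPM + 1)/(3p CPM + 1)) the ratio averaged 7.14 ± 0.33 in fasted and 7.73 ± 0.02 in control liver (SD, n = 3). The difference was -0.59 (SE 0.44; 95% interval -1.46 to 0.29; limma adjusted p = 0.424 over 38 hairpins), and without the pseudocount an exact permutation test gave p = 0.1, the smallest possible (adjusted p = 0.5). limma called 3 of the 38 hairpins (7.89%), neither miR-192 nor miR-194 among them, and in 4 (10.5%) all fasted libraries lay below all controls (8 in either direction, 21.1%).

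For miR-194 the arms varied within the groups. There were 70.6, 131 and 46.4 counts of the 5p arm per count of the 3p arm in fasted replicates 3, 4 and 5, and 54.6, 34.2 and 74.2 in control replicates 3, 4 and 6. The ranges overlapped, and the 3p arm rested on 17.5 to 40.5 counts in fasted and 32 to 88 counts in control libraries. The difference on the same log2 scale was 0.52 (SE 0.45; 95% interval -0.38 to 1.42; limma adjusted p = 0.463), and 0.13 without fasted replicate 4, 0.23 without control replicate 4 and 0.86 without fasted replicate 5.

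**Figure D3:**
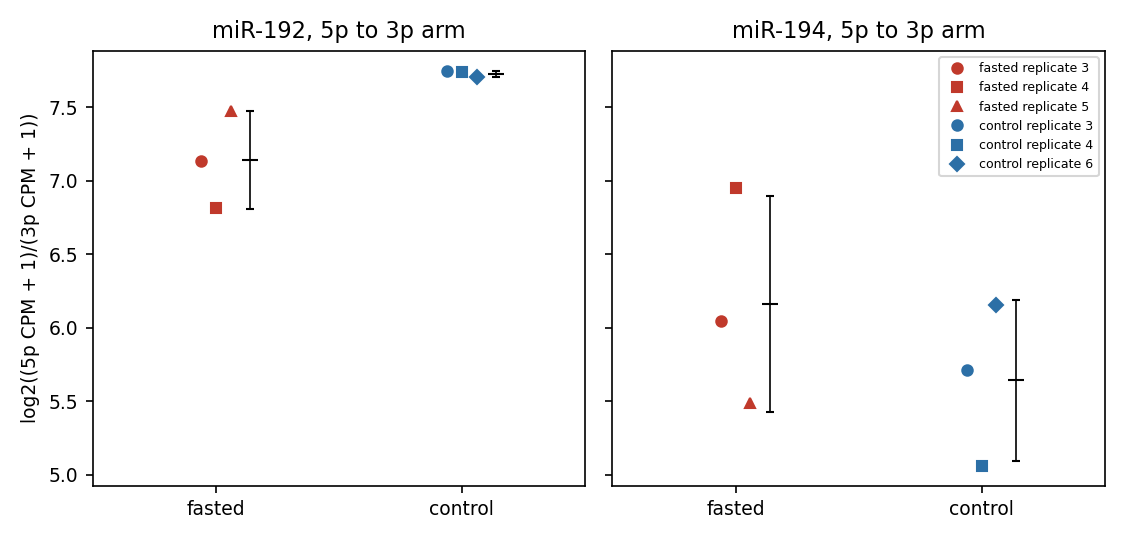
Ratio of 5p to 3p arm per library on a log2 scale, for miR-192 (left) and miR-194 (right); symbols are libraries and bars the mean ± SD of 3. The control libraries of miR-192 lie between 7.71 and 7.75 and its fasted libraries between 6.81 and 7.48, while the miR-194 groups overlap.

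The 3p rows themselves were not past the threshold. ssa-miR-192a-3p, the main passenger arm of miR-192, had 50.4, 98.1 and 64.6 CPM in fasted replicates 3, 4 and 5, and 51.8, 78.1 and 63.9 CPM in control replicates 3, 4 and 6. The groups overlapped on this scale, and the log2 fold change was 0.14 (SE 0.37, adjusted p = 0.921 by edgeR). It was -0.17 without fasted replicate 4 and 0.0041 without control replicate 3. By share of the table's counts ssa-miR-192a-3p held 0.00827, 0.00880 and 0.00781% in fasted replicates 3, 4 and 5. Each lay above the 0.00457, 0.00651 and 0.00487% of control replicates 3, 4 and 6. By share, all fasted libraries lay above all controls in 24.6% of the 309 rows tested. ssa-miR-194a-3p_R-2 had 14.5, 16.3 and 26.8 CPM in fasted replicates 3, 4 and 5, and 23.7, 37.8 and 22.9 CPM in control replicates 3, 4 and 6. Only fasted replicate 5 reached the control range, and its log2 fold change was -0.52 (SE 0.41, adjusted p = 0.690 by edgeR), or -0.27 without control replicate 4 and -0.32 without fasted replicate 3. The 24-base row ola-miR-192-3p_R+1_1ss11CA had a log2 fold change of -0.13 (SE 0.67) on 4 to 18 counts in fasted and 7 to 62 counts in control libraries; it was 0.61 without control replicate 3 and 0.26 without fasted replicate 4.

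Nearly all 5p counts were in rows with the same 5′ start, though how reads with near-identical ends were assigned to rows is not known here. Of the miR-192-5p counts, 99.8% ± 0.080 in fasted and 99.8% ± 0.028 in control liver were in the row ipu-miR-192 (SD, n = 3; exact permutation p = 0.3). ssa-miR-194a-5p held 98.9% ± 0.091 of the miR-194-5p counts in fasted and 98.9% ± 0.30 in control liver (exact permutation p = 1). The row with the shifted miR-192 seed, dre-miR-192_L+1, was 29.9, 15.6 and 15.0 of each 10000 5p counts in fasted replicates 3, 4 and 5, and 13.4, 9.78 and 10.7 in control replicates 3, 4 and 6. All fasted libraries lay above all controls (exact permutation p = 0.1, the smallest possible, adjusted p = 0.5), on 23 to 32 counts in fasted and 15 to 74 counts in control libraries. The same held for 4 of the 11 tested rows (36.4%, this one included) that begin at another base than the leading row of their arm. Each was taken as a share of that arm, with the letters of a miRNA number summed, and this background was added after the values were seen. It is a loose one, since dre-miR-26b_L+1R-1 and dre-miR-30c-5p_L+1R+1, both among the 4, carry another letter than their leading rows, ssa-miR-26a-5p and dre-miR-30e-5p_R-2. As a level dre-miR-192_L+1 stood at 0.28 on the log2 scale against controls (SE 0.36, adjusted p = 0.846 by edgeR), and at 0.18 without control replicate 6 and 0.44 without fasted replicate 5. For miR-194 the rows with another 5′ start were 99.9, 94.97 and 80.6 of each 10000 5p counts in fasted replicates 3, 4 and 5, and 69.1, 93.0 and 58.5 in control replicates 3, 4 and 6, with overlapping groups (exact permutation p = 0.2, adjusted p = 0.5). dre-miR-194a_L+1R+1, which makes up most of them, stood at a log2 fold change of 0.42 (SE 0.44, adjusted p = 0.741 by edgeR), which was -4.6e-04 without fasted replicate 4.

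Of the 15 member rows 7 passed the filter on low counts, and these held 99.9% of the member counts. By edgeR 0 of the 7 were called, against 0 of all 309 rows (0% called); 0 of the 7 and 26 of the 309 (8.41%) had an unadjusted p under 0.05, and DESeq2 called 0 members and 4 rows in all (1.29%). Of the 7, 4 had a log2 fold change above 0 and 3 below, with a median of 0.05, beside 155 above and 154 below (49.8%) and a median of 0.01 over all rows tested. Their 95% intervals reached from 0.70 to 1.55 to either side. With library totals as the scaling the count above 0 was 7 of 7, beside 256 of all 309 rows (82.8%). With rows of the same mature name summed before the fit, miR-192-5p stood at -0.49 on the log2 scale (SE 0.32, adjusted p = 0.595 by edgeR) and miR-194a-5p at 0.05 (SE 0.39, adjusted p = 0.959).

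**Figure D4:**
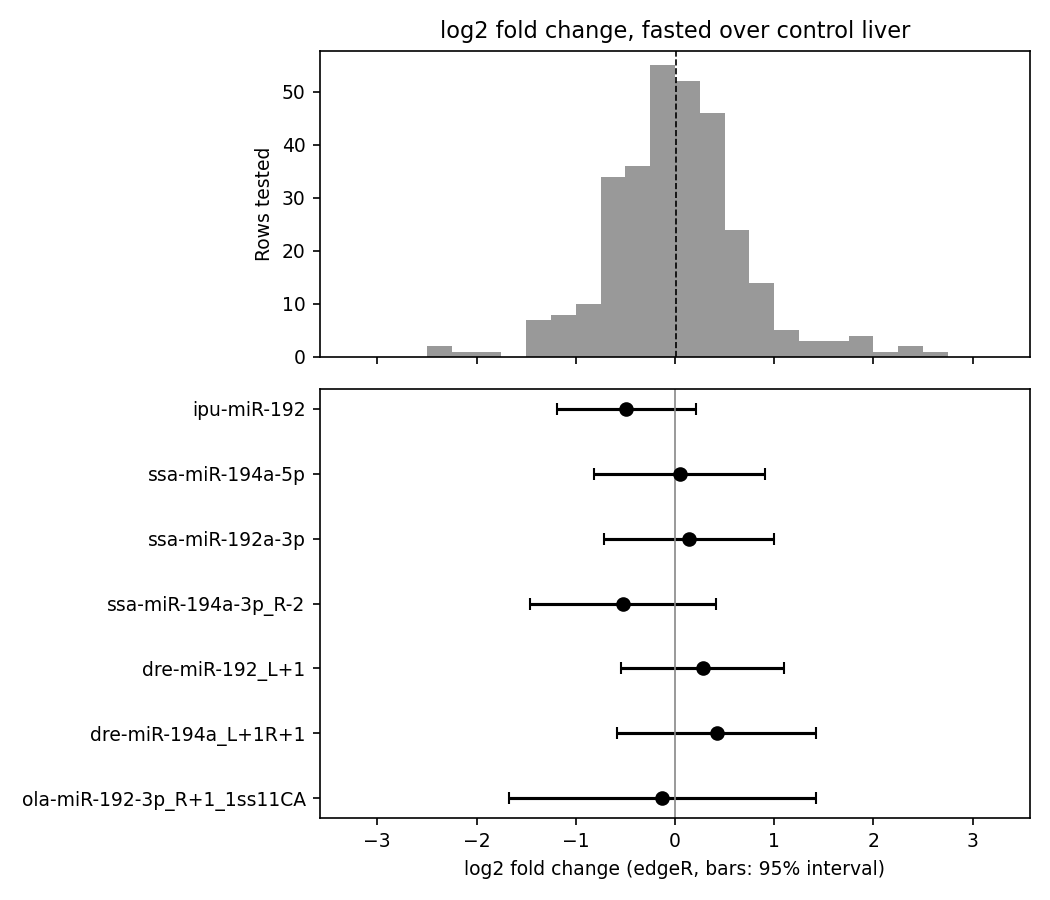
Above, the distribution of log2 fold changes (fasted over control) of all 309 rows tested, with the median as a dashed line; below, the 7 member rows with their 95% intervals from edgeR. Every member interval spans 0, and the values run from -0.52 for ssa-miR-194a-3p_R-2 to 0.42 for dre-miR-194a_L+1R+1.

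The other 8 rows held 102 counts between them over the 6 libraries. The variants of miR-194b were among these: ssa-miR-194b-5p had 0, 1.33 and 0 counts in fasted replicates 3, 4 and 5, and 6, 2.33 and 5.5 counts in control replicates 3, 4 and 6. Its C9T variant had 0, 0.833 and 0 counts in the fasted libraries, and 4, 0.833 and 3.5 counts in the same control libraries. Every fasted value lies under the floor of 3 counts, so a level of either cannot be told from 0 there at this depth. The 18-base row ssa-miR-194c-5p_R-4, which matches ssa-miR-194a-5p except for G18A at its last base, had 1 to 4 counts in fasted and 2 to 5.5 counts in control libraries. The 25-base rows of miR-192-5p, ola-miR-192-5p_L+1R+3_1ss22AG and fru-miR-192_R+4, extend ipu-miR-192 by 4 bases at the 3′ end. Together they were 0.935, 0.678 and 2.75 of each 10000 5p counts in fasted replicates 3, 4 and 5, and 4.88, 3.91 and 2.43 in control replicates 3, 4 and 6 (exact permutation p = 0.2, adjusted p = 0.5). The remaining 3 rows, ola-miR-194-3p_L-1R+3_1ss10GA, fru-miR-194_L+3R-2 and dre-miR-194a_R+6, had 3, 2 and 1.33 counts over all libraries. Some counts are fractions, 35.6% of the member values lying more than 1e-06 from a whole number, and how reads were assigned to near-identical rows is not known here, so their values are uncertain.

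The profile of miR-192-5p over the 6 libraries was most like those of ssa-miR-21a-5p_R-3, fru-miR-103 and dre-miR-140-5p_R+1. Likeness was the root mean square difference of centred log2 CPM over the 6 libraries, which was 0.17, 0.18 and 0.21 for these rows against a median of 0.61 over the 302 other rows. ssa-miR-21a-5p_R-3 had 615, 940 and 1213 CPM in fasted replicates 3, 4 and 5, and 1217, 1417 and 1468 CPM in control replicates 3, 4 and 6. It thus also had fasted replicate 3 lowest, and a log2 fold change of -0.57 (edgeR adjusted p = 0.606). The log2 fold change was smaller in size for fru-miR-103 (-0.32) and dre-miR-140-5p_R+1 (-0.11). In dre-miR-140-5p_R+1 the highest library was fasted replicate 5, at 138 CPM, so its groups overlapped. The TMM factor, by which CPM are divided, was 1.64, 0.898 and 1.21 in fasted replicates 3, 4 and 5, and 0.762 to 0.882 in controls. The factor of 1.64 lowers every row of fasted replicate 3 alike. Its part in the low values of these rows was not tested. The rows nearest to ssa-miR-194a-5p were ssa-miR-26a-5p at 0.15, ssa-miR-30b-5p_R-4 at 0.16 and dre-miR-140-3p_L-1 at 0.18, each highest in fasted replicate 4. The difference between ipu-miR-192 and ssa-miR-194a-5p themselves was 0.44, and 73 other rows lay nearer to ipu-miR-192.

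Lists of related miRNAs and of other cell types were read beside the members. The hepatocyte miRNAs (miR-122, miR-148, miR-101, miR-22) held 41.1 to 47.9% of the counts in fasted and 41.9 to 44.6% in control libraries, with 5 of 16 tested rows above 0 and a median log2 fold change of -0.24. dre-miR-122_R-1 had -0.50 (SE 0.27) and dre-miR-148 -1.04 (SE 0.54), both with an edgeR adjusted p of 0.606. Of the miRNAs linked to p53 in human cells (miR-34, miR-145, miR-143, miR-16, miR-107), 6 of 11 tested rows lay above 0, with a median of 0.04. Their most abundant rows, ccr-miR-143 and ssa-miR-145-3p_L+2R-1, had -0.10 (SE 0.28) and -0.65 (SE 0.45). Rows of this list above 0 included another miR-145 row, ola-miR-145_L+1R+3, at 0.65 and dre-miR-34a at 0.60. In these lists, as in those that follow, 0 rows were called by edgeR.

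Epithelia of gut, kidney and bile duct also hold miR-192 and miR-194, so a list of epithelial miRNAs was summed. Not all of the list is particular to these epithelia. The epithelial markers (miR-200, miR-141, miR-429, miR-203, miR-205, miR-375) held 0.162 to 0.283% of the counts in fasted and 0.106 to 0.208% in control libraries. Of their 7 tested rows 6 lay above 0, with a median of 0.47, but fru-miR-200a_R-1, the most abundant, had -0.44 (SE 0.38) and fru-miR-200b_R+1 0.16 (SE 0.35). The remaining tested rows were dre-miR-429a at 0.48, dre-miR-375 at 0.47, and the miR-203 rows at 0.37, 0.55 and 1.29. The median thus rests largely on miR-203 and miR-375. miR-205 was at 0 in at least 1 fasted library and miR-141 in at least 1 control library. By share miR-375 was higher in all fasted libraries, at 0.00965 to 0.0174%, than in all controls, at 0.00478 to 0.00725%. The same held for miR-145 (0.550 to 0.659% in fasted and 0.369 to 0.531% in control libraries), miR-150 (0.0106 to 0.0318% in fasted and 0.00636 to 0.00804% in control libraries) and miR-216 (0.00544 to 0.0105% in fasted and 0.00193 to 0.00540% in control libraries) of the other lists. It also held for 24.6% of all single rows tested. The values here are sums over all rows of a miRNA number, so that percentage is not a like background. The pancreas markers miR-216 and miR-217 held 0.00586 to 0.0127% in fasted and 0.00215 to 0.00642% in control libraries, with 3 of 3 tested rows above 0, a median of 0.44, and dre-miR-216b at 0.93 (SE 0.38) and ssa-miR-216b-5p at 0.44 (SE 0.58). The part of these cells in the miR-192 and miR-194 values was not tested.

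The blood markers varied between libraries in both groups. miR-451 and miR-144, of erythrocytes, held 0.113 to 0.893% in fasted and 0.172 to 0.358% in control libraries, with 3 of 4 tested rows above 0 and a median of 0.07. dre-miR-451_R-1 had 0.18 (SE 0.55) and fru-miR-144_L+1R-1 0.05 (SE 0.81). The leucocyte markers miR-142, miR-150, miR-155 and miR-223 held 0.0712 to 0.278% in fasted and 0.0818 to 0.178% in control libraries, with 4 of 6 tested rows above 0 and a median of 0.28. dre-miR-142a-5p had -0.01 (SE 0.52) and dre-miR-142a-3p_L-1R-1 0.36 (SE 0.58). All these lists overlapped between the groups by summed share, and no value of the members was adjusted for them.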

How the data were processed

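Small RNA of frozen liver was extracted with Trizol and made into libraries with an Illumina TruSeq kit, per the labels' protocols, and sequenced on a GAIIx, per the series' design text. The authors deposited a table of expected counts (some are fractions) per small RNA sequence and library, and a normalized signal, which is the expected count divided by a library size parameter given in the file header. The deposited read summary gives counts of mappable reads after adaptor removal, per the file headers. The submitters' processing notes name Bowtie 1.1.1. Not given in the sources used here are the division of reads between rows and any genome build. Expected counts were rounded and fitted over all rows in R 4.3.3 by the quasi-likelihood test of edgeR 4.0.16 (TMM scaling, filterByExpr with a minimum count of 10), keeping 309 of 1427 rows and 99.9% of counts; the threshold was a Benjamini-Hochberg adjusted p of 0.05. The common biological coefficient of variation was 0.447. Arm ratios were fitted with limma 3.58.1 over 38 hairpins with both arms averaging 10 CPM or more, a pseudocount of 1 and letters of a miRNA number summed, since fish prefixes letter them differently; a name with no arm took that of a matching row. DESeq2 1.42.0, limma-voom, limma on the authors' signal, other scalings, no filter, summed rows and left-out libraries were alternatives. Exact permutation tests used scipy 1.17.1; the measures of 5′ starts, 25-base rows and unpadded arm ratios were added after the values were seen. The miRNAs to describe and the lists were chosen with earlier results of these data known; nearest rows were the 3 with the smallest root mean square difference, and of each list the 2 most abundant rows are named. No 2 libraries were duplicates (smallest chi-square per degree of freedom 101.4). The scripts were tested on simulated data. Both groups have libraries numbered 3 and 4; as no label ties these numbers to a shared tank or day, libraries were not blocked.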

Additional observations from a re-analysis of the deposited data

How the results depend on the processing

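0 member rows were called under any of the 16 alternatives to the edgeR fit, while the number of all rows called was 0 except for 4 with DESeq2, 11 without the filter on low counts, 34 with the replicate block and 0 to 1 when a library was left out (1 without control replicate 3). The replicate block used only the 4 libraries with the shared numbers 3 and 4, whose unblocked fit, chosen after seeing the data, called 0 rows. Deviations of same-numbered libraries correlated at 0.44 for number 3 and -0.04 for number 4. These values cannot settle whether the numbers pair libraries, and the main fit was left unblocked because no label ties them. Under the block ipu-miR-192 had a log2 fold change of -0.57 and ssa-miR-194a-5p 0.33. With library totals the values of ipu-miR-192 (0.066), ssa-miR-194a-3p_R-2 (0.036) and ola-miR-192-3p_R+1_1ss11CA (0.50) turned positive, as the shift of all rows by 0.58 would make them. ssa-miR-194a-5p turned to -0.016 with limma-voom and -0.039 without the filter, and ran from -0.32 to 0.31 with a library left out; the cause was not tested. The same ranges were -0.55 to -0.27 for ipu-miR-192, -0.68 to -0.27 for ssa-miR-194a-3p_R-2, 0.18 to 0.44 for dre-miR-192_L+1, -0.17 to 0.40 for ssa-miR-192a-3p, -0.53 to 0.61 for ola-miR-192-3p_R+1_1ss11CA and -4.6e-04 to 0.74 for dre-miR-194a_L+1R+1. The number of hairpins called on the arm ratio was 3, or 1 with both arms at 5 CPM or more, 4 with a pseudocount of 5, 2 with the replicate block, and 0 (without fasted replicate 3) to 5 (without fasted replicate 4) with a library left out; it was 1 without control replicate 3 or 4. With a library left out the arm difference of miR-192 ran from -0.76 to -0.42 and that of miR-194 from 0.13 to 0.86, and under the replicate block they were -0.77 and 1.11. With a library left out, the difference of the log2 miR-192 to miR-194 ratio ran from -0.69 to -0.20. The percentage of an arm's counts in its leading row differed by -4.73 to 4.48 points for miR-192-3p, -0.162 to 0.130 for miR-194-5p, -1.65 to 1.04 for miR-194-3p and -0.0928 to -0.0198 for miR-192-5p. The tested 3p and shifted-seed rows rest on 4 to 204 counts a library.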
